A study of Zea mays with 40 samples.

Results

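The step from 10 to 20 days after pollination (DAP) is the earliest step of this series in the developing maize (Zea mays) kernel. It was read from 16 of the 40 libraries of the series, which are all 8 libraries labelled 10 DAP and all 8 labelled 20 DAP. They came from kernels of 4 lines that the labels name T147, T191, T209 and T210, with 2 ears per line and DAP as biological repeats and seeds taken from the middle of each ear. The study used the parents of a recombinant inbred population and 2 further inbred lines, and the labels name no treatment. Which label is which parent is not given there, and no difference between DAP depends on it. Expression was measured as FPKM, fragments per kilobase of gene scaled to the mapped total of the library, and therefore per length. Differences were fitted on log2(FPKM + 1) with line as a term, for the 31600 of 65196 rows that reached at least 1 FPKM in at least 2 of the 16 libraries, and each difference below is 20 DAP minus 10 DAP on that scale, with n = 8 libraries per DAP. An adjusted p (limma, Benjamini-Hochberg over all 31600 rows) under 0.05 was required before a gene is said to have risen or fallen.

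The kernel joins several tissues whose activity follows one another. In the young kernel the endosperm multiplies its cells, and its basal transfer layer, next to the mother plant, takes up sugars after a cell wall invertase has cleaved sucrose. A small embryo-surrounding region of the endosperm lies around the young embryo. The starchy endosperm then makes starch and zeins, the prolamin storage proteins of maize, while the embryo and the aleurone lay down oil bodies, globulins and the late embryogenesis abundant (LEA) proteins that protect tissue during drying. Because whole kernels were sequenced, fewer cells of a type and less RNA per cell cannot be told apart in any difference given here.

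Depth relative to the median library, read from the steps between low FPKM values, ranged from 0.76 to 1.401, FPKM summed to between 544588 and 618199 per library, and 22106 to 25240 rows reached 1 FPKM. Numbers of reads are unknown. Libraries of one DAP resembled each other, with median Spearman correlations to the others of that DAP between 0.864 and 0.888 at 10 DAP. At 20 DAP these medians were 0.826 to 0.878 in 7 libraries and 0.791 in T191 replicate 2, which thus stood apart. That library correlated with its own pair at 0.851, whereas the other pairs of ears at 20 DAP reached 0.894 to 0.947. Its median correlation with the 30 DAP libraries was 0.77, close to that with its own DAP. This closeness was not particular to T191 replicate 2, since T210 20 DAP replicate 2 had medians of 0.837 with 30 DAP and 0.862 with its own DAP. Values that moved most without it, and list counts that changed, are given both ways.

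At this step 15612 of the 31600 genes changed, which is 49.4%. Higher levels at 20 DAP were found for 4367 genes (13.8%) and lower levels for 11245 (35.6%). The median difference over all genes tested was -0.21, and 65.6% of genes lay below 0. When libraries were rescaled by the median ratio over the 15322 genes above 1 FPKM in all 16, this median was -0.02, and 6748 genes were higher (21.4%) and 7407 lower (23.4%). The share of calls that were higher moved from 28.0% to 47.7%, while 11768 genes were called in 1 direction under both scalings and 0 in opposite directions. Large steps were divided more evenly, since 415 genes rose by 2 or more and 360 fell by 2 or more on the log2 scale. Without T191 20 DAP replicate 2 there were 4516 higher and 11365 lower genes. The later steps called 39.3% of genes from 20 to 30 DAP, 31.4% from 30 to 40 DAP and 27.2% from 40 to 50 DAP, each in its own 16 libraries, and neighbouring steps share libraries.

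Many genes moved 1 way in every line. For 1826 genes (5.78% of those tested) both 20 DAP libraries lay above both 10 DAP libraries in each of the 4 lines, with an adjusted p under 0.05, and for 5836 genes (18.5%) both lay below. After rescaling these counts were 3267 and 3523. Described first are the named genes with the largest differences among them, 12 in each direction, with at most 2 taken from any of the gene lists below or under the same name. List members with larger steps than some of these, such as DHN1, glb1, ESR2B and tcrr-1, therefore follow with their lists. Relatives outside the lists and under other names were not limited, so that several meg and bap genes are among the falls. They were chosen by the size of the step, so that their order is a description.

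Of the 12 rising names, glb2, EMB5, Lea14A and OBAP2B encode proteins of seed storage and protection. Expression of glb2, an embryo globulin, was 2.46, 21.8 and 75.8 FPKM as lowest, median and highest at 10 DAP and 40.3, 9182 and 15682 FPKM at 20 DAP. The other 7 libraries at 20 DAP held at least 5902 FPKM, whereas T191 replicate 2 lay below both 10 DAP libraries of T209 and above those of its own line. The difference was +7.90 ± 0.96 (SE, n = 8 libraries per DAP, adjusted p = 1.38e-05) and +8.90 (adjusted p = 6.72e-09) without that library. EMB5, a LEA protein of the embryo, was between 0.136 and 1.87 FPKM (median 1.02) at 10 DAP and between 112 and 1994 FPKM (median 346) at 20 DAP, with no overlap, and differed by +7.73 ± 0.47 (adjusted p = 2.29e-08). Lea14A, another LEA protein, differed by +5.09 ± 0.60 (adjusted p = 1.08e-05) and ran from 13.8 FPKM in T210 to 904 FPKM in T191 replicate 2 at 20 DAP, with overlap of the lowest of these with the highest 10 DAP library at 14.8 FPKM. Without T191 20 DAP replicate 2 its difference was +4.82 (adjusted p = 1.9e-05). OBAP2B, a protein of oil bodies, was at between 2.46 and 10.3 FPKM (median 6.8) at 10 DAP and between 226 and 1255 FPKM (median 451) at 20 DAP, a difference of +6.05 ± 0.27 (adjusted p = 1.92e-09).

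Other rising names included enzymes and defence proteins. Levels of mtl2 were between 10.4 and 105 FPKM (median 62.3) at 10 DAP and between 2438 and 14942 FPKM (median 8083) at 20 DAP, without overlap, a difference of +7.08 ± 0.32 (adjusted p = 2.01e-09). Ferredoxin FdI, an electron carrier, differed by +5.93 ± 0.27 (adjusted p = 2.05e-09), vpe1, a vacuolar processing enzyme that matures storage proteins, by +5.17 ± 0.21 (adjusted p = 1.29e-09), and HMT-4, a homocysteine S-methyltransferase, by +5.12 ± 0.30 (adjusted p = 1.53e-08). In each of these 3 the lowest 20 DAP library was above the highest 10 DAP library. The seed chitinases, which act on fungal cell walls, rose with unequal spread. ChiB was between 63.7 and 193 FPKM (median 113) at 10 DAP and between 809.9 and 5018 FPKM (median 2585) at 20 DAP, without overlap, and differed by +4.28 ± 0.35 (adjusted p = 3.37e-07). ChiA differed by +4.85 ± 0.88 (adjusted p = 0.0004), and its steps were +2.32 in T147, +2.47 in T210, +7.25 in T191 and +7.38 in T209. Its highest library was T191 20 DAP replicate 2 with 5797 FPKM, against 165 FPKM in the other ear, and the difference was +4.17 (adjusted p = 0.000231) without it. The step of chiA was not shown to differ among lines (adjusted p of the line-by-step term = 0.33). AR3 differed by +4.23 ± 0.36 (adjusted p = 5.25e-07) and gst19, a glutathione S-transferase, by +4.17 ± 0.30 (adjusted p = 1.01e-07).

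**Figure D1:**
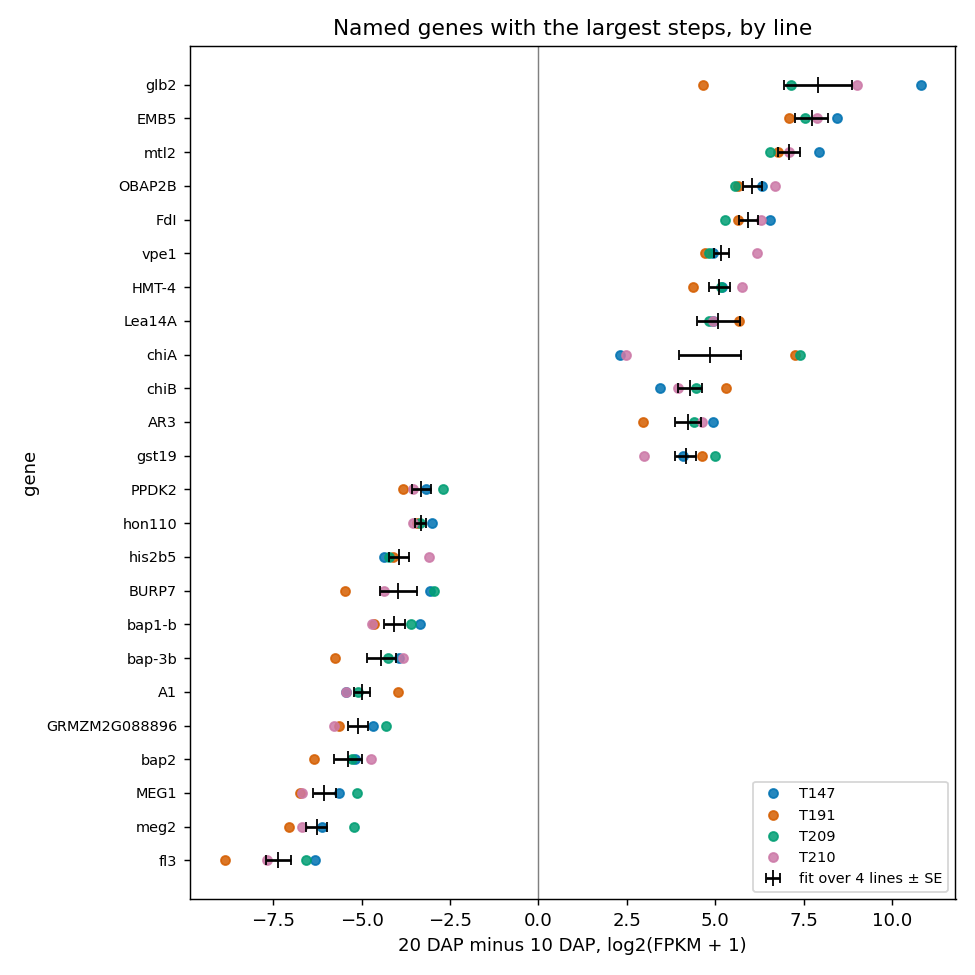
Differences between 20 and 10 DAP on the log2(FPKM + 1) scale for the 12 rising and 12 falling named genes with the largest steps when at most 2 are taken from any list. Coloured points are the 4 lines, black bars the fit over lines ± SE. Because the genes were chosen to move 1 way in every line, all points of the 12 rising genes lie right of 0. Those of the 12 falling genes lie left of it for the same reason. Glb2 and chiA are the most spread among lines.

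Fl3 (GRMZM2G006585), a PLATZ transcription factor of the endosperm, was between 255 and 2574 FPKM (median 1372) at 10 DAP and between 1.56 and 18 FPKM (median 3.33) at 20 DAP. No library overlapped, and the difference of -7.35 ± 0.36 (adjusted p = 3.62e-09) was the largest of the 12 falls. MEG1, a small cysteine-rich protein of the transfer layer expressed from the maternal allele, was between 117 and 448 FPKM (median 193) at 10 DAP and between 0 and 4.14 FPKM (median 2.42) at 20 DAP, a difference of -6.05 ± 0.33 (adjusted p = 8.48e-09). The rows GRMZM2G094054 and GRMZM2G088896, both annotated as meg2 of the same family, differed by -6.27 ± 0.29 (adjusted p = 2.05e-09) and -5.10 ± 0.28 (adjusted p = 8.48e-09). Such near-identical genes can share reads, so that their steps are not separate evidence.

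The basal-layer antifungal proteins (bap genes) followed. Bap2 was between 186 and 503 FPKM (median 288) at 10 DAP and between 0.263 and 11.9 FPKM (median 9.35) at 20 DAP, with a difference of -5.38 ± 0.41 (adjusted p = 1.75e-07), or -4.99 (adjusted p = 5e-09) without T191 20 DAP replicate 2, the lowest library. Bap-3b differed by -4.44 ± 0.40 (adjusted p = 1.05e-06) and bap1-b by -4.08 ± 0.30 (adjusted p = 1.26e-07), and the row bap-1a holds the same values as bap1-b in every library. A1, the dihydroflavonol reductase of anthocyanin synthesis, was between 15 and 124 FPKM (median 38.5) at 10 DAP and between 0 and 1.64 FPKM (median 0.297) at 20 DAP, a difference of -4.996 ± 0.23 (adjusted p = 2.05e-09). BURP7, named for its BURP domain, differed by -3.96 ± 0.52 (adjusted p = 2.86e-05), and its lowest level of 0.492 FPKM at 20 DAP was that of T191 replicate 2. Without that library its difference was -3.42 (adjusted p = 1.48e-07). The other names were his2b5, a histone H2B, with -3.94 ± 0.29 (adjusted p = 1.25e-07), hon110, a linker histone H1, with -3.33 ± 0.15 (adjusted p = 2.05e-09), and PPDK2, a pyruvate phosphate dikinase, with -3.31 ± 0.26 (adjusted p = 2.66e-07).

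A stricter view is of genes that were off in every library of one stage and on in every library of the other. Under 1 FPKM in all 8 libraries at 10 DAP and at least 5 FPKM in all 8 at 20 DAP was met by 16 genes (0.0506% of those tested), and the reverse by 7 genes (0.0222%). These numbers describe the thresholds and carry no test. Of the 16 genes, 15 have GRMZM identifiers and 1 is a locus assembled from the reads. All 16 and all 7 lack a gene name in the table. Some, such as GRMZM2G107286 and GRMZM2G009465, have an entry in the RefSeq gene table under a locus number. Only symbols and synonyms were read there, and they gave no gene name. No role is therefore given, and the identifiers named here were chosen after their values were seen. The gene lists described below were planned with GRMZM2G150134, an off gene, as ebe1, but neither source gives this identifier that name. Nearest to the thresholds, the lowest 20 DAP value of an on gene was 5.02 FPKM in GRMZM2G304132, against 4.79 FPKM in GRMZM5G897067, which was left out. The highest 10 DAP value was 0.962 FPKM in GRMZM2G342807, against 1.05 FPKM in GRMZM2G154685 outside. Of the off genes, the lowest 10 DAP value was 6.19 FPKM in GRMZM2G496319, against 4.97 FPKM in GRMZM2G022253 outside, and the highest 20 DAP value was 0.742 FPKM in GRMZM2G163406, against 1.07 FPKM in GRMZM2G016145 outside. The last of these is tcrr-1, a response regulator of transfer cells.

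Among the genes turned on, GRMZM2G107286 had the highest median. It was between 0.0441 and 0.363 FPKM (median 0.139) at 10 DAP and between 40 and 452 FPKM (median 92.3) at 20 DAP. GRMZM2G001938 went from between 0.0418 and 0.468 FPKM (median 0.167) to between 5.35 and 190.7 FPKM (median 52.3), and GRMZM2G073508 from between 0.0721 and 0.925 FPKM (median 0.496) to between 17.7 and 104 FPKM (median 73.4). All 3 were near 0 in every line at 10 DAP. GRMZM5G836308 reached between 9.82 and 109 FPKM (median 44.1), GRMZM2G322547 between 5.22 and 133 FPKM (median 26.8) and GRMZM2G342807 between 12.8 and 80 FPKM (median 31.1) at 20 DAP. The assembled locus MSTRG.8299 reached between 7.59 and 279.8 FPKM (median 46.1), and the other 9 on genes had medians from 11.5 to 26.3 FPKM.

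Among the genes turned off, GRMZM2G114356 was the most abundant, between 82.9 and 378 FPKM (median 139) at 10 DAP and between 0.124 and 0.664 FPKM (median 0.307) at 20 DAP. GRMZM2G150134 went from between 13.8 and 164 FPKM (median 79.9) to between 0 and 0.191 FPKM (median 0.108), and GRMZM2G163406 from between 27.7 and 72.9 FPKM (median 32.3) to between 0.178 and 0.742 FPKM (median 0.408). These 3 lost nearly all of a moderate to high level. GRMZM2G009465 was between 13.1 and 30.4 FPKM (median 20.4) at 10 DAP and at 0 in the median library at 20 DAP, and GRMZM2G003909 ran from 7.77 to 187 FPKM at 10 DAP and was at most 0.192 FPKM at 20 DAP. GRMZM2G167576 and GRMZM2G496319 had the lowest medians at 10 DAP, 11.8 and 7.46 FPKM. With the thresholds applied to line means instead of single libraries, 48 genes were on and 19 off, and named genes appeared, namely CISZOG2, a cis-zeatin O-glucosyltransferase, among those on, and CSLD1, a cellulose synthase-like protein, and tcrr-1 among those off.

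The on genes mostly stayed on. Their median level was 32.8 FPKM at 20 DAP, 74.5 at 30 DAP, 97.4 at 40 DAP and 102 FPKM at 50 DAP, as means over 8 libraries per gene. All 16 had means of at least 1 FPKM at each later DAP. Single genes took other courses. GRMZM2G073508 had a median of 1.59 FPKM at 30 DAP and 87.8 FPKM at 50 DAP. The assembled locus MSTRG.8299 had medians of 36.6, 3.72 and 2.42 FPKM at 30, 40 and 50 DAP and was at 0 in its lowest library at 40 and at 50 DAP. GRMZM2G107286, GRMZM2G353729, GRMZM5G842965, GRMZM5G836308 and GRMZM2G311187 also had lower medians at 50 than at 30 DAP. GRMZM2G412436 reached a median of 561 FPKM at 50 DAP from 24.8 FPKM at 20 DAP. None of the 7 off genes had a mean over 8 libraries of 1 FPKM or more again, and their median level was 0.0798 FPKM at 30 DAP, 0.0123 at 40 DAP and 0.0193 at 50 DAP. At 30 DAP 2 off genes reached 1 FPKM in some libraries, GRMZM2G163406 with a median of 0.995 and a highest level of 2.11 FPKM, and GRMZM2G167576 with a highest level of 1.78 FPKM. At 50 DAP GRMZM2G496319 did, with at most 1.54 FPKM.

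**Figure D2:**
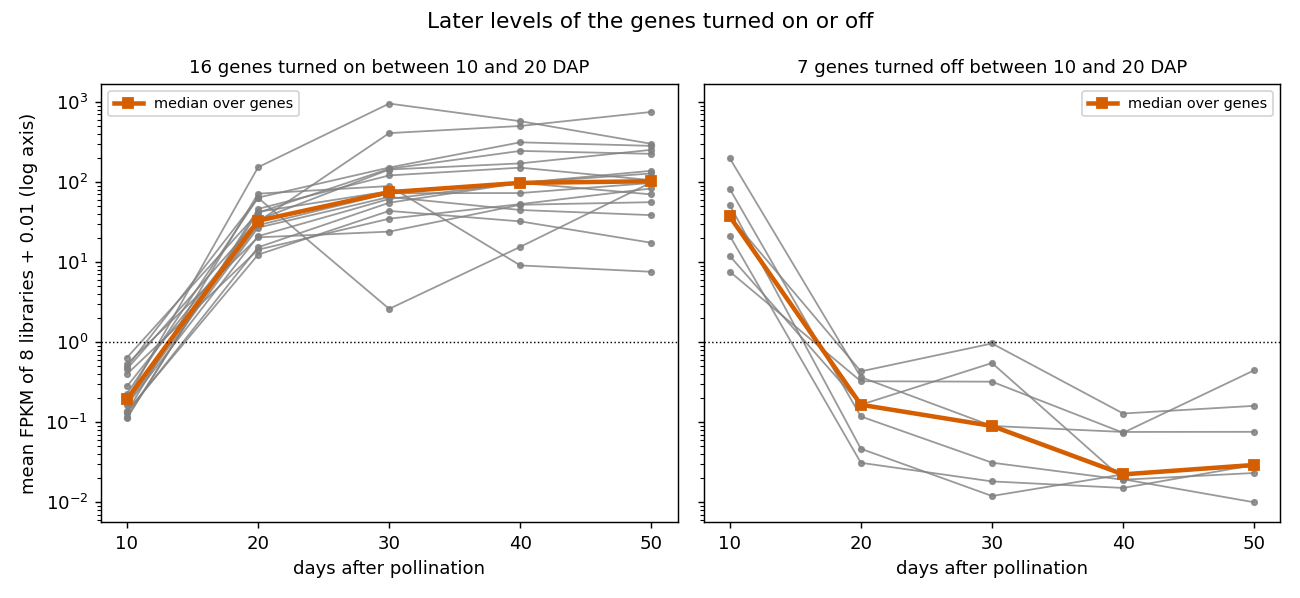
Mean FPKM of 8 libraries plus 0.01 (log axis) against days after pollination for the 16 genes turned on (left) and the 7 turned off (right) between 10 and 20 DAP. Grey lines are genes, orange squares the median over genes, and the dotted line 1 FPKM. The means of the on genes lie above 1 FPKM from 20 DAP onwards and those of the off genes below it.

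The genes of kernel pathways were taken from 12 lists, of which the members were picked by role and not by how they moved, with earlier results of these data known. Of the embryo, oil and desiccation list, 10 of 15 genes rose, 3 fell and 2 did not pass the test, beside 13.8% higher and 35.6% lower among all genes. After rescaling 11 rose, beside 21.4% of all genes, and 11 rose without T191 20 DAP replicate 2. Their median difference was +3.06 beside -0.21 for all genes, and +3.36 beside -0.02 after rescaling. Together these genes held 0.209 to 0.694% of FPKM at 10 DAP and 1.74 to 10.2% at 20 DAP. The lowest share at 20 DAP was that of T191 replicate 2 and the highest that of T210 replicate 2, and the groups did not overlap.

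Oleosins, the coat proteins of oil bodies, were well expressed at 10 DAP and rose further. Ole16 was between 396 and 1186 FPKM (median 1012) at 10 DAP and between 3868 and 26888 FPKM (median 11229) at 20 DAP and differed by +3.73 ± 0.31 (adjusted p = 4.78e-07). Ole17 differed by +3.52 ± 0.30 (adjusted p = 5.78e-07) and OLE18 by +3.06 ± 0.24 (adjusted p = 2.16e-07), each without overlap. DGAT1-2, the acyltransferase of the last step of oil synthesis, rose by +0.56 ± 0.15 (adjusted p = 0.00535), from a median of 6.63 to 11.2 FPKM. EREB20, an AP2-domain factor of the WRINKLED1 type, which acts on oil synthesis in Arabidopsis, fell by 0.84 ± 0.21 (adjusted p = 0.00386), and EREB85 of the same type differed by +0.30 ± 0.29 (adjusted p = 0.393).

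Globulin glb1 was between 8.67 and 72.1 FPKM (median 47.4) at 10 DAP and between 1385 and 7956 FPKM (median 2830.2) at 20 DAP, a difference of +6.16 ± 0.36 (adjusted p = 1.53e-08). Glb3, by contrast, was already between 570.5 and 2354 FPKM (median 1318) at 10 DAP and did not pass, with +0.79 ± 0.33 (adjusted p = 0.0609). It did pass after rescaling, with +1.08 (adjusted p = 0.0226), and without T191 20 DAP replicate 2, with +1.06 (adjusted p = 0.00218). The call was also made without T191 10 DAP replicate 2, without line T191 (adjusted p = 0.00914) and without the variance trend (adjusted p = 0.0484). DHN1 (rab17), a dehydrin, was between 0.185 and 5.54 FPKM (median 2.62) at 10 DAP and between 65.8 and 1195 FPKM (median 222) at 20 DAP and differed by +6.402 ± 0.45 (adjusted p = 8.68e-08). Its highest 20 DAP library was T191 replicate 2, the same library that was lowest for glb2. MGL3, a LEA protein, differed by +3.58 ± 0.48 (adjusted p = 3.17e-05). Of the embryo regulators, vp1, the B3-domain factor of seed maturation, rose by +1.51 ± 0.43 (adjusted p = 0.00937), while T191 replicate 2 held 3.42 FPKM against 26.7 FPKM in the other ear. Without this library its difference was +1.92 (adjusted p = 6.12e-05), whereas the call was lost without line T147 (adjusted p = 0.0927) and without line T210 (adjusted p = 0.0784). Lec1, the early embryo regulator, was between 0.773 and 2.71 FPKM (median 1.27) at 10 DAP and at most 0.0303 FPKM at 20 DAP, where 6 of 8 libraries were at 0, and fell by 1.22 ± 0.12 (adjusted p = 2.36e-06). ABI22, a B3-domain factor, fell by 0.87 ± 0.16 (adjusted p = 0.000476).

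**Figure D3:**
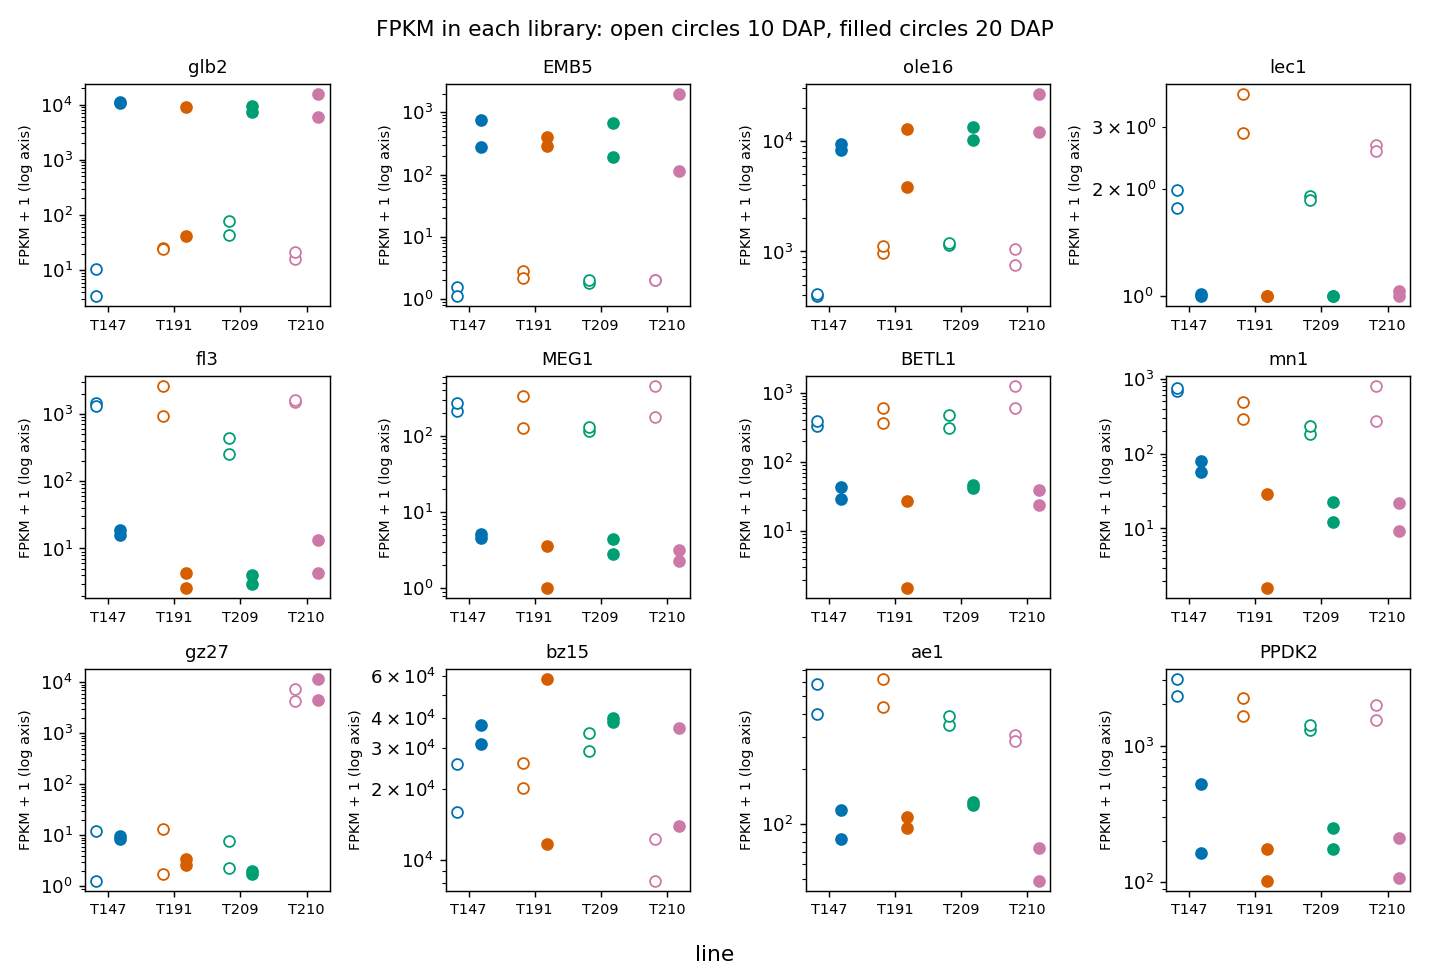
FPKM + 1 on a log axis in each of the 16 libraries for 12 genes, by line, with open circles for 10 DAP and filled circles for 20 DAP. EMB5 and ole16 are higher and lec1, fl3, MEG1, BETL1, mn1, ae1 and PPDK2 lower at 20 DAP in every library, whereas bz15 overlaps, gz27 is high in T210 alone, and glb2 shows T191 20 DAP replicate 2 near the 10 DAP levels.

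The transfer layer and embryo-surrounding region list moved in the opposite direction. Of 18 genes, 16 fell and 0 rose, beside 35.6% lower and 13.8% higher among all genes, with a median difference of -3.65, and -3.41 after rescaling. In 13 of the 18 both 20 DAP libraries were lower in every line with an adjusted p under 0.05, beside 18.5% of all genes tested. Their share of FPKM went from 0.5 to 1.38% at 10 DAP to 0.0176 to 0.085% at 20 DAP, with the lowest share in T191 20 DAP replicate 2. BETL1, a secreted transfer layer protein, was between 303 and 1235 FPKM (median 432) at 10 DAP and between 0.502 and 45.7 FPKM (median 33.3) at 20 DAP and differed by -4.37 ± 0.53 (adjusted p = 1.44e-05). In T191 20 DAP replicate 2 it was 0.502 FPKM, whereas the other 7 libraries were between 23.2 and 45.7 FPKM, and the difference was -3.82 (adjusted p = 1.14e-07) without it. Betl10 differed by -4.39 ± 0.62 (adjusted p = 5.37e-05) and -3.72 (adjusted p = 8.34e-08) without that library, and betl-9 by -3.65 ± 0.35 (adjusted p = 1.84e-06).

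Mn1, the cell wall invertase that feeds the transfer layer, was between 180.4 and 794 FPKM (median 385) at 10 DAP and between 0.589 and 77.6 FPKM (median 21) at 20 DAP, a difference of -4.47 ± 0.52 (adjusted p = 8.88e-06). Without T191 20 DAP replicate 2, which held 0.589 FPKM, it was -3.97 (adjusted p = 2.63e-07). Incw1, another cell wall invertase, did not follow, with -0.04 ± 0.20 (adjusted p = 0.89), and its sign turned after rescaling to +0.24. Tcrr-1 was between 16.2 and 44.1 FPKM (median 31.3) at 10 DAP and between 0 and 1.07 FPKM (median 0.612) at 20 DAP and differed by -4.30 ± 0.23 (adjusted p = 8.48e-09). In the embryo-surrounding region, ESR2B was between 14.6 and 131 FPKM (median 52.5) at 10 DAP and between 0 and 7.28 FPKM (median 0.816) at 20 DAP, a difference of -4.48 ± 0.35 (adjusted p = 2.65e-07). ESR3 and ESR1 differed by -2.69 ± 0.37 (adjusted p = 4.33e-05) and -1.87 ± 0.35 (adjusted p = 0.000565) and were at 0 in the median library at 20 DAP. EBE-2 differed by -2.31 ± 0.24 (adjusted p = 2.99e-06). EBE-1, esr6 and betl4 had the smallest differences beside incw1, at -0.26, -0.93 and -1.74, of which EBE-1 did not pass the test (adjusted p = 0.0977). This EBE-1 row is not GRMZM2G150134, the identifier planned for ebe1, which differed by -5.84 and is among the genes turned off. Which of these rows is ebe1 was not settled here.

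**Figure D4:**
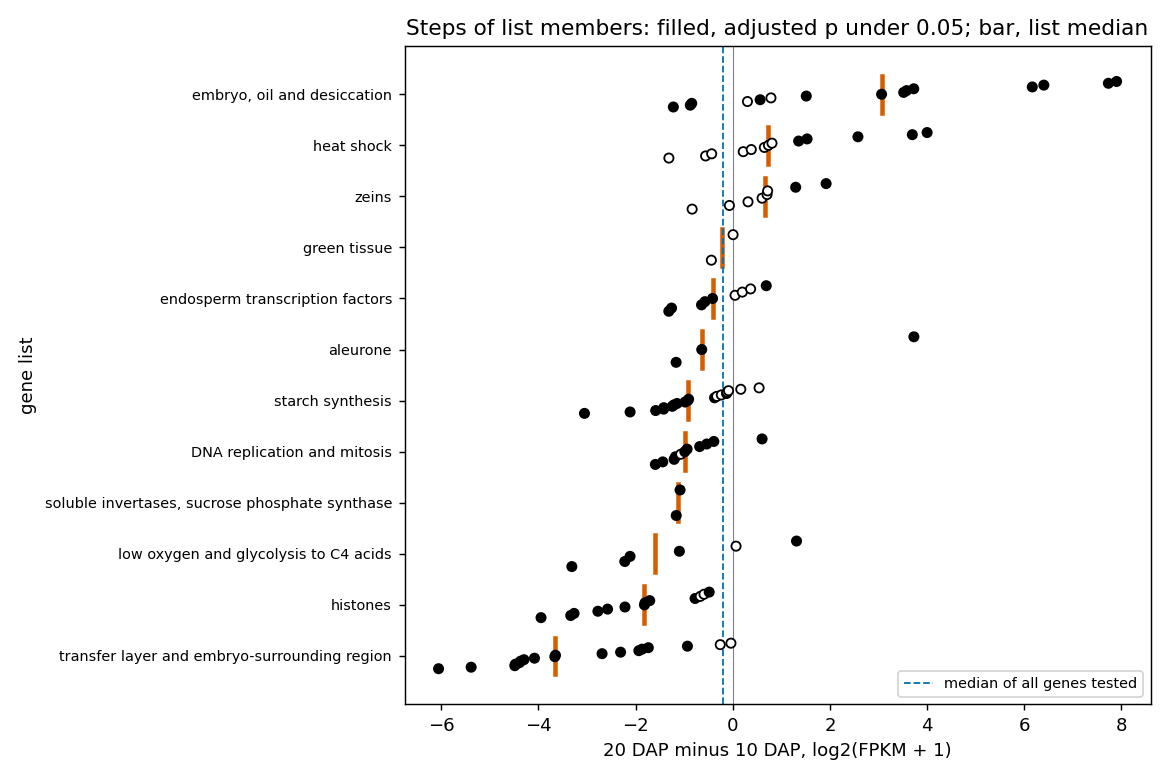
Differences between 20 and 10 DAP on the log2(FPKM + 1) scale for the tested members of 12 gene lists, 1 point per gene, filled where the adjusted p was under 0.05. Orange bars are list medians and the dashed line the median of all genes tested (-0.21). The embryo, oil and desiccation list has the highest median (+3.06) and the transfer layer and embryo-surrounding region list the lowest (-3.65).

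Most zeins did not pass the test. Counting rows with identical values once, 2 of 8 zeins rose, 0 fell and 6 did not pass, with a median difference of +0.66. So few members give a share of risen genes near the 13.8% of all genes, or the 21.4% after rescaling. They already held 2.79 to 10.4% of FPKM at 10 DAP and 2.89 to 14.4% at 20 DAP. Bz15, the beta-zein, was between 8203 and 34658 FPKM (median 22864) at 10 DAP and between 11689 and 58666 FPKM (median 36852) at 20 DAP, the highest level among the listed genes. The groups overlapped, with T191 replicate 2 and T210 replicate 2 lowest at 20 DAP at 11689 and 13949 FPKM, and the difference was +0.60 ± 0.38 (adjusted p = 0.193), or +0.85 (adjusted p = 0.0354) without the former. Gz50, a gamma-zein, rose by +1.30 ± 0.47 (adjusted p = 0.034) and the alpha-zein floury2 by +1.92 ± 0.69 (adjusted p = 0.0321). Neither call was kept when all low genes were tested too, with adjusted p = 0.108 and 0.0863. The call of gz50 was also lost without any one of T147 10 DAP replicate 2, T147 20 DAP replicate 1, T191 20 DAP replicate 1, T209 10 DAP replicate 2, T209 20 DAP replicate 1, T210 10 DAP replicate 1 and T210 20 DAP replicate 1 (adjusted p up to 0.0713). That of floury2 was lost without either T147 20 DAP library, either T191 replicate 1 library or either T210 replicate 1 library (adjusted p up to 0.0681). Gz16 did not pass, with +0.71 ± 0.36 (adjusted p = 0.119), but did without T191 20 DAP replicate 2, with +0.97 (adjusted p = 0.0142). Without that library 4 of 8 zeins rose. The delta-zein dzs18 differed by -0.84 ± 0.62 (adjusted p = 0.276).

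Gz27, another gamma-zein, differed far more among lines than between DAP. T210 held 4265 and 7334 FPKM at 10 DAP and 11790.4 and 4580.1 FPKM at 20 DAP. The 12 libraries of the other lines lay between 0.289 and 12.3 FPKM. Its step over lines was -0.07 ± 0.52 (adjusted p = 0.924). Zeins have near-identical copies between which reads can be divided, and 7 of the 14 matched zein rows hold the same values in every library, with a difference of +0.72 ± 0.62 (adjusted p = 0.354).

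Of 19 genes of starch synthesis tested, 12 fell, 0 rose and 7 did not pass, beside 35.6% lower and 13.8% higher among all genes, with a median of -0.93, and after rescaling, when 23.4% of all genes were lower, 10 fell and 1 rose around a median of -0.64. The gene that rose then, and also without T191 20 DAP replicate 2, was GBSSIIa, a granule-bound starch synthase, with +0.54 ± 0.32 (adjusted p = 0.172) before rescaling. Sus1, a sucrose synthase, had the largest difference, from between 82 and 242 FPKM (median 110.1) to between 3.27 and 32.5 FPKM (median 15.7), at -3.05 ± 0.36 (adjusted p = 1.01e-05). Sh1, the main sucrose synthase of the endosperm, was between 467 and 1760.2 FPKM (median 919.8) at 10 DAP and between 220.0 and 789.5 FPKM (median 415) at 20 DAP, and differed by -1.15 ± 0.26 (adjusted p = 0.00229). Of the subunits of ADP-glucose pyrophosphorylase, which makes the glucose donor of starch, sh2 fell with -0.98 ± 0.18 (adjusted p = 0.000377) and bt2 with -1.59 ± 0.22 (adjusted p = 4.45e-05). Other subunit genes are not given singly here. Bt1, the transporter of that donor into the amyloplast, fell with -1.21 ± 0.24 (adjusted p = 0.000896). Ae1, a starch branching enzyme, was between 284 and 623 FPKM (median 393) at 10 DAP and between 47.9 and 130.2 FPKM (median 101) at 20 DAP without overlap, a difference of -2.11 ± 0.17 (adjusted p = 2.55e-07). The starch synthases du1 and sugary2 differed by -1.42 ± 0.25 (adjusted p = 0.000298) and -0.93 ± 0.15 (adjusted p = 0.000187), and the phosphorylase pho1 by -1.42 ± 0.18 (adjusted p = 1.8e-05). Wx1, the granule-bound synthase of amylose, was between 661 and 2145 FPKM (median 1551) at 10 DAP and between 626 and 2206 FPKM (median 1315) at 20 DAP and did not pass, with -0.13 ± 0.27 (adjusted p = 0.717).

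Of 9 endosperm transcription factors, 1 rose and 5 fell, beside 13.8% higher and 35.6% lower among all genes, and 2 rose and 2 fell after rescaling, beside 21.4% and 23.4%. Without T191 20 DAP replicate 2, o2 and ohp2 rose and 5 fell. Opaque2 (o2), a bZIP activator of zein genes, rose by +0.69 ± 0.23 (adjusted p = 0.0202) from a median of 119.7 to 208.5 FPKM, with overlapping groups. This call was lost in the model of all 40 libraries (adjusted p = 0.0893), without line T209 (adjusted p = 0.153) and without line T210 (adjusted p = 0.0642). Its partner pbf1, a DOF factor, differed by +0.05 ± 0.16 (adjusted p = 0.816). Nkd1 and Nkd2, zinc finger factors of the aleurone and endosperm, differed by -1.26 ± 0.18 (adjusted p = 7.14e-05) and -1.32 ± 0.21 (adjusted p = 0.000123), and Opaque11, a bHLH factor, by -0.57 ± 0.13 (adjusted p = 0.00195). After rescaling, only Nkd1 and Nkd2 still passed as lower, and o2 and ohp2 as higher. The sign of the steps of o2, Nkd1, Nkd2 and Opaque11 was the same under both scalings.

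Of 11 genes of DNA replication and mitosis tested, 9 fell and 1 rose (median -0.99, and -0.81 after rescaling, when 7 fell). Among all genes 35.6% were lower and 13.8% higher, or 23.4% and 21.4% after rescaling, and without T191 20 DAP replicate 2 there were 8 that fell. Cyc1, an A-type cyclin, was between 0.803 and 3.96 FPKM (median 2.05) at 10 DAP and between 0 and 0.0864 FPKM (median 0.0222) at 20 DAP, which was near 0 in all lines, with a difference of -1.59 ± 0.17 (adjusted p = 4.43e-06). Pcna2, the sliding clamp of DNA polymerase, differed by -1.18 ± 0.15 (adjusted p = 2.23e-05), MCM6 of the replicative helicase by -0.99 ± 0.14 (adjusted p = 5.35e-05), and RNRS3, a small subunit of ribonucleotide reductase, by -1.44 ± 0.20 (adjusted p = 5.14e-05). CycD2, a D-type cyclin, was the member that rose, by +0.60 ± 0.14 (adjusted p = 0.00271), with higher 20 DAP libraries in each of the 4 lines. RNRL1, a large subunit, did not pass and was at 0 FPKM in T191 20 DAP replicate 2, against 36.6 FPKM in its pair.

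Histones, which pack newly made DNA, fell in 11 of 13 genes, and in 10 after rescaling, with medians of -1.82 and -1.52, beside 35.6% and 23.4% lower among all genes. Without T191 20 DAP replicate 2 the number was 10. Their share of FPKM was 0.166 to 0.295% at 10 DAP and 0.0601 to 0.142% at 20 DAP without overlap, and was highest in the T210 libraries at 20 DAP. Hon110 was between 78.1 and 141 FPKM (median 102) at 10 DAP and between 5.53 and 15.6 FPKM (median 9.82) at 20 DAP, and his2b5 was between 25.4 and 153 FPKM (median 90.6) and between 1.65 and 13.8 FPKM (median 3.63). The H1 gene his1 differed by -3.26 ± 0.19 (adjusted p = 1.53e-08) and his2a1, a histone H2A, by -2.77 ± 0.30 (adjusted p = 4.53e-06). Smaller falls were those of cenH3, the histone of centromeres, with -0.77 ± 0.18 (adjusted p = 0.00254), and histone2b1, with -0.48 ± 0.18 (adjusted p = 0.0347), which was called neither after rescaling nor without that library.

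**Figure D5:**
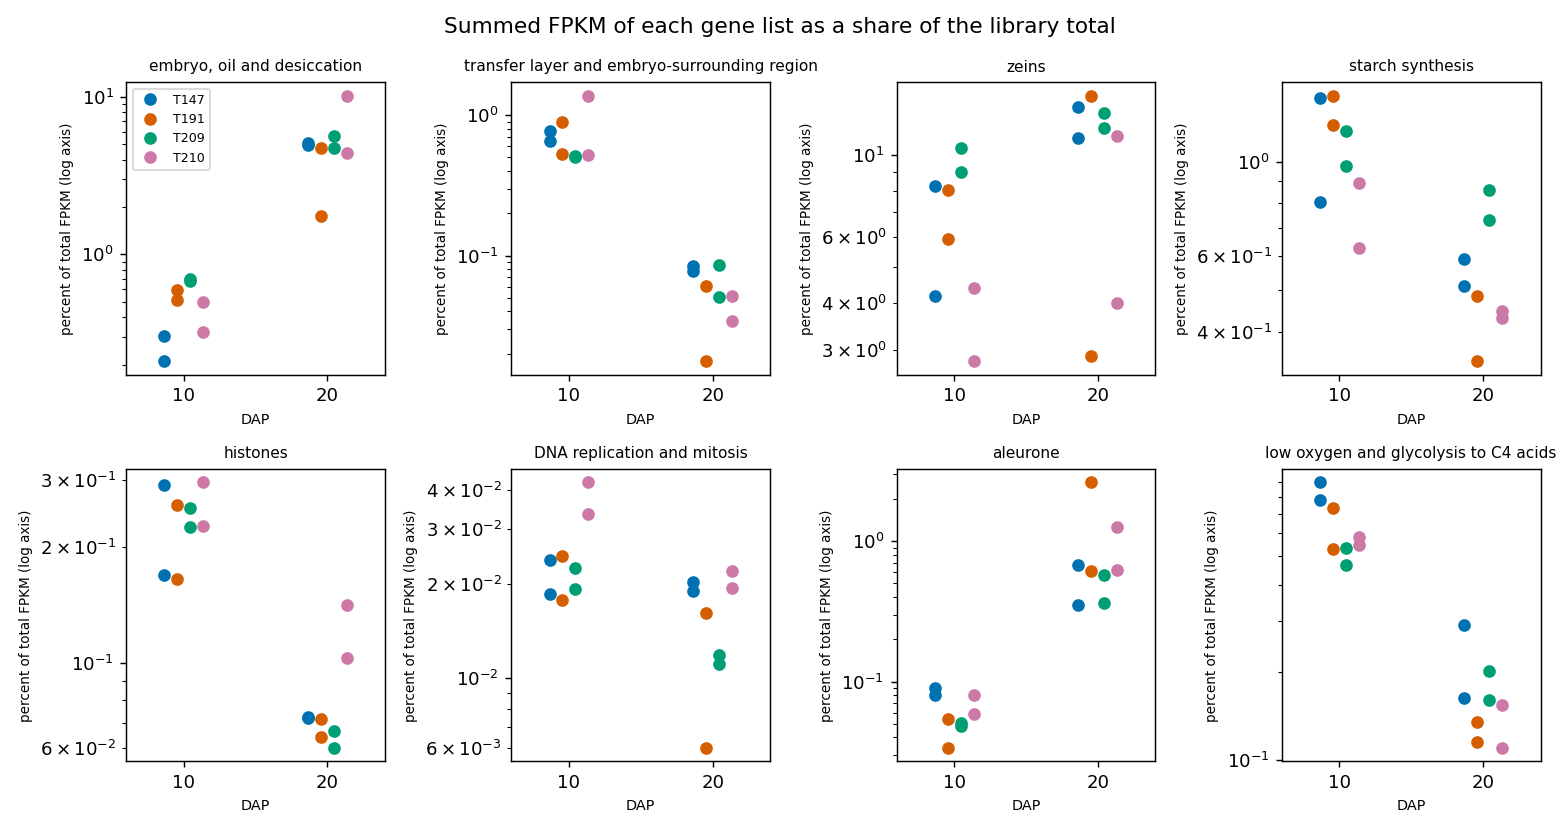
Summed FPKM of the members of 8 gene lists as percent of the library total (log axis) at 10 and 20 DAP, 1 point per library and coloured by line. The embryo, oil and desiccation, aleurone, transfer layer, histone and low oxygen lists part the 10 from the 20 DAP libraries, whereas zeins and starch synthesis overlap, and T191 replicate 2 is the lowest 20 DAP library of the embryo, transfer layer, zein and starch lists. Nearly all of the aleurone sum at 20 DAP is plt1, the 1 of its 3 genes that rose, while the other 2 fell.

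Of 6 genes of low oxygen metabolism and of the path from pyruvate to C4 acids, 4 fell and 1 rose, beside 35.6% lower and 13.8% higher among all genes, with a median of -1.61, and 3 fell after rescaling, beside 23.4%. PPDK2 and pdk1 encode pyruvate phosphate dikinases, which interconvert pyruvate and phosphoenolpyruvate. PPDK2 was between 1294 and 3080.2 FPKM (median 1821) at 10 DAP and between 102 and 521 FPKM (median 174) at 20 DAP, and pdk1 was between 616 and 732 FPKM (median 662) and between 105 and 211 FPKM (median 138), a difference of -2.22 ± 0.15 (adjusted p = 8.14e-08), neither with overlap. Of the fermentation genes, ADH2 differed by -2.11 ± 0.24 (adjusted p = 8.7e-06) and adh1 by -1.10 ± 0.33 (adjusted p = 0.0136), the latter with 45.6 FPKM in T210 20 DAP replicate 1 against 362 FPKM in its pair. Pdc2, a pyruvate decarboxylase, rose by +1.31 ± 0.15 (adjusted p = 8.4e-06), from between 35.3 and 55.2 FPKM (median 44.3) to between 81.3 and 168 FPKM (median 107) without overlap, while pdc3 differed by +0.07 ± 0.17 (adjusted p = 0.756). The call of adh1 did not hold after rescaling (-0.80, adjusted p = 0.0664).

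Among 13 heat shock genes, 5 rose, 0 fell and 8 did not pass, beside 13.8% higher and 35.6% lower among all genes, and 7 rose after rescaling, beside 21.4%. Without T191 20 DAP replicate 2, 5 rose and HSP90-2 fell, with -0.51 (adjusted p = 0.0452). Hsp26, a small chaperone, was between 4.53 and 54.2 FPKM (median 16.6) at 10 DAP and between 75.1 and 498 FPKM (median 300.3) at 20 DAP and differed by +4.00 ± 0.52 (adjusted p = 2.35e-05). The gene GRMZM2G158232, annotated as another small one, differed by +3.70 ± 0.47 (adjusted p = 2.09e-05), HSP82 by +2.58 ± 0.48 (adjusted p = 0.000536) and hsp101, a disaggregating chaperone, by +1.36 ± 0.37 (adjusted p = 0.00725). The call of hsp101 was lost without line T209 (adjusted p = 0.0741) and without line T210 (adjusted p = 0.0633). HSP70, another chaperone, did not pass, with -0.56 ± 0.25 (adjusted p = 0.0788), but did without T209 20 DAP replicate 1, where it was lower. In the aleurone list, plt1, a lipid transfer protein, was between 165 and 472 FPKM (median 302) at 10 DAP and between 2004 and 16193 FPKM (median 3726) at 20 DAP, a difference of +3.73 ± 0.37 (adjusted p = 2.45e-06), whereas the developmental genes CR4, a receptor kinase, and dek1, a calpain, fell by 0.64 ± 0.14 (adjusted p = 0.00138) and 1.16 ± 0.18 (adjusted p = 9.01e-05). The soluble invertase ivr2 and SPS, a sucrose phosphate synthase, differed by -1.16 ± 0.14 (adjusted p = 1.04e-05) and -1.08 ± 0.28 (adjusted p = 0.00499). Markers of green maternal tissue were near 0 throughout. Of 12 genes for light harvesting and carbon fixation, 10 stayed under 1 FPKM in all 16 libraries. RBCS reached at most 1.64 FPKM and CAB1 at most 2.37 FPKM, both at 10 DAP, and neither passed the test.

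A test of whether the step differs among the 4 lines, with 2 libraries per line and DAP, called 127 of 31600 genes (0.402%), and 3597 had an unadjusted p under 0.05. Of the named genes and list members described above, 82 and not all were read for this term. Of these 82, 0 were called and 12 had an unadjusted p under 0.05, with the smallest adjusted p of 0.101 for ESR3. Among the genes turned off in all 4 lines, GRMZM2G003909 and GRMZM2G150134 were called (adjusted p of the line-by-step term = 0.00993 and 0.03). Their falls differed in size, from -3.37 in T209 to -7.26 in T210 and from -4.08 in T191 to -6.83 in T147. Of the 127, the line farthest from the median of the lines was T210 for 56, T191 for 29, and T147 and T209 for 21 each. The count depended on single libraries. It lay between 46 and 232 when 1 library was left out, except that it was 1450 without T191 20 DAP replicate 1, where the line rests on replicate 2, the library that stood apart. It was 203 without replicate 2.

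The genes with the smallest adjusted p, chosen after their values were seen, were turned on or off in 1 line. GRMZM2G095244 was 28.2 and 25.6 FPKM in T210 at 10 DAP and listed at 0 in the other 14 libraries, including T210 at 20 DAP. GRMZM2G149452 was 29.9 and 22 FPKM in T210 at 20 DAP and at most 0.366 FPKM in the others. The named genes given here are examples of those called, also chosen after their values were seen. Gar2 had steps of -3.36 in T147 and -4.89 in T210, against -0.04 in T191 and -0.48 in T209 (adjusted p of the line-by-step term = 0.00118). At 10 DAP gar2 was at least 17.6 FPKM in T147 and T210. It was at most 0.472 FPKM in T191 and T209, which left little room to fall there. F3h, a flavanone hydroxylase of the anthocyanin pathway, stepped by -2.36, -0.26, -1.54 and -3.96 in T147, T191, T209 and T210 (adjusted p = 0.0238). In T191 it was at most 0.516 FPKM already at 10 DAP. CKX5, a cytokinin oxidase, stepped by -3.88 in T147 and -2.53 in T210, against -0.19 in T191 and +0.31 in T209 (adjusted p = 0.0284). At 10 DAP CKX5 was at most 1.31 FPKM in T191 and T209, against at least 6.94 FPKM in T147 and T210. These steps therefore reflect unequal levels of the lines at 10 DAP. NAR took another course, with steps of +1.32, -3.34, -0.12 and +1.07 in T147, T191, T209 and T210 (adjusted p = 0.00835).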

How the data were processed

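RNA of whole kernels was sequenced, and the authors deposited 1 table of FPKM values, calculated from gene length and read counts, for 65196 rows, of which 25650 are loci assembled from the reads. Per the processing notes the tools were Bowtie 0.12.2 and Cuffdiff with B73 RefGen_v3. Gene names came from the table or from a RefSeq gene table (19086 rows matched), and 2612 rows hold the values of another row. Strand-specific counting is not stated, so overlapping and near-identical genes can share reads.

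Rows with at least 1 FPKM in at least 2 of the 16 libraries were fitted as log2(FPKM + 1), which understates changes of low genes, with limma 3.58.1 in R 4.3.3 (line and DAP, trended variance, Benjamini-Hochberg adjustment). Models were tested on simulated data. Ears are the replicates, n = 8 per DAP. Read numbers are unknown, so no counting intervals are given. The members and lists were chosen with earlier results of these data known. Named genes were the 12 largest called steps in each direction among named genes that moved 1 way in every line, with at most 2 per list or product name, together with list members. The planned choice of named on and off genes found none, so identifiers are given. Alternatives were pseudocount, filter, rescaling, model, left-out libraries and lines, and on and off thresholds.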

Additional observations from a re-analysis of the deposited data

Results flagged for a closer look

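In 17 of 166 groups of 8 libraries the highest or lowest library lay farther from its neighbour than Dixon's 95% limit allows, where chance gives about 1 in 20 groups. At 20 DAP, T191 replicate 2 was such a library for 6 genes: glb2 at 40.28 FPKM, BURP7 at 0.4921, glb3 at 639.7, vp1 at 3.418, BETL1 at 0.5022 and betl10 at 0.7675 FPKM, each the lowest of its group. T210 20 DAP replicate 2 was far from the others for FdI at 748.6 FPKM, ole17 at 3540.0 FPKM and pbf1 at 12.21 FPKM. T210 20 DAP replicate 1 was far for lec1 at 0.03031, ESR1 at 0.06124, ESR3 at 0.1926, adh1 at 45.64 and ivr2 at 1.023 FPKM. Lec1, ESR1 and ESR3 were near the floor at 20 DAP, so that very low values were flagged. At 10 DAP the far libraries were T147 replicate 2, with glb1 at 8.674 and OLE18 at 79.18 FPKM, and T210 replicate 1, with betl-9 at 2587 FPKM.

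For 4 genes both libraries of a line moved 1 way and both of another line the opposite way. The steps of incw1 were 0.244 in T147 and -0.2758 in T210 on the log2(FPKM + 1) scale. The steps of dzs18 were -1.13 in T147, -2.809 in T191 and 0.8672 in T210. Those of pbf1 were -0.4039 in T191 and 0.08951 in T209, and those of HSP70 were -1.245 in T147, -0.505 in T191, -0.8799 in T210 and 0.3974 in T209. The pairs of lines were not tested singly, and the line-by-step term over all 4 lines gave adjusted p (limma) of 0.894 for incw1, 0.67 for dzs18, 0.803 for pbf1 and 0.56 for HSP70.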

How the results depend on the processing

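Of 1064 single-gene values under settings other than left-out libraries, 1027 kept direction and side of the threshold, as did 1280 of 1312 with 1 library left out. Rescaling gave 6748 higher and 7407 lower genes, and 3267 and 3523 that moved 1 way in every line. A difference of at least 1 in each line left 580 and 967. Genes turned on numbered 5 at 10 FPKM, 9 with off under 0.5 FPKM and 48 with line means. Genes turned off numbered 15 at 3 FPKM, 4 at 10 FPKM, 4 with off under 0.5 FPKM and 19 with line means. Genes whose step differed among lines numbered 17 with a pseudocount of 0.1, 323 without a filter, 84 after rescaling, 1276 with all 40 libraries and 46 to 1450 when 1 library was left out. The highest were 1450 without T191 20 DAP replicate 1, 232 without T210 20 DAP replicate 2 and 203 without T191 20 DAP replicate 2, and the lowest 46 without T191 10 DAP replicate 1. The cause was not tested.

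Signs turned for 4 genes that did not pass the test: incw1 (0.24 after rescaling, 0.0561 without T209, 0.0427 without T210, -0.203 to 0.0865 with 1 library left out), gz27 (0.007 with a pseudocount of 0.1, 0.13 after rescaling, 0.14 without T191, 0.30 without T209, -0.48 to 0.25 with 1 library left out), wx1 (0.17 after rescaling, 0.14 without T191, -0.255 to 0.0507 with 1 library left out) and pbf1 (-0.0166 without T147, -0.024 without T210, -0.0615 to 0.122 with 1 library left out).

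Ear numbers did not pair the libraries: deviations of same-numbered ears correlated at -0.046, 0.101, 0.09 and -0.12 in T147, T191, T209 and T210. With the replicate number as a block, 4475 genes were higher and 11351 lower, 115 differed among lines, and 86 instead of 85 named or listed genes were called. Read numbers are unknown, which limits what can be said of low genes.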
